A study of Mus musculus with 8 samples.

Results

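A set of 10 genes of the heat shock protein and chaperone family were followed in brain cells enriched for CD45: Hspa1a, Hspa1b, Hspa8, Hsp90aa1, Hsph1, Dnajb1 and Hspb1 of the cytosol, Hspd1 and Hspe1 of mitochondria, and Hspa5 of the endoplasmic reticulum. They were chosen by symbol, as members of this family and with earlier results of these data known. All 10 were present among the 32227 genes counted. Male C57BL/6J mice, given as 5 to 6 months old in the sample labels, received 1 intraperitoneal injection of LPS (lipopolysaccharide, a bacterial endotoxin) at 15000000 EU/kg or of saline, and their brains were taken 24 hours later. Each brain was enzymatically dissociated either with DMSO, the vehicle, or with 3 inhibitors: actinomycin D and triptolide, which block transcription, and anisomycin, which blocks translation. No brain was perfused, so circulating blood cells were retained, and CD45+ cells were collected magnetically from every brain before PIPseq (a droplet method of single-cell RNA sequencing). Each of the 4 combinations of injection and dissociation was represented by 2 libraries, numbered 1 and 2 after the batch in the labels, so there were 8 libraries, each from a different mouse.

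Chaperones hold unfolded proteins and help them reach or regain their native shape. The cytosolic HSP70 and HSP90 machines work with J-domain co-chaperones and nucleotide exchange factors, the HSP60 and HSP10 chaperonin folds proteins inside mitochondria, and BiP, encoded by Hspa5, serves the lumen of the endoplasmic reticulum. Hspa1a and Hspa1b are classical targets of heat shock factor 1, which binds heat shock elements in their promoters, whereas Hspa8 encodes a constitutive HSP70 and Hspa5 is a target of the unfolded protein response. In brain tissue these genes matter for a further reason: enzymes, warmth and handling during dissociation can raise stress genes after the animal has died.

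Promoters were read from RefSeq on build GRCm38.p6, which was not the build of the counts (GRCm39), so positions below hold for GRCm38.p6 only. Entries existed for 8 of the 10 genes (11 start sites in all), and not for Hspa8 or Hsp90aa1. The 4 stretches shown are those of the genes whose levels set the main contrasts below; each runs 5′ to 3′ toward the start site on the strand given, and capitals mark matches to GAANNTTC or TTCNNGAA (the pair of units of a heat shock element) or, for Hspa5, to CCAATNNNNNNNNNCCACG (the endoplasmic reticulum stress element). For Hspa1a and Hspa1b these are the 250 bases before the start, at chr17:34972157-34972406 (minus strand) and chr17:34959239-34959488 (minus strand). Hspd1 and Hspe1 lie head to head, and the 215 bases between their starts, at chr1:55087933-55088147, are shown on the minus strand, that of Hspd1. The Hspa5 stretch is the 250 bases at chr2:34771840-34772089 (plus strand).
Hspa1a: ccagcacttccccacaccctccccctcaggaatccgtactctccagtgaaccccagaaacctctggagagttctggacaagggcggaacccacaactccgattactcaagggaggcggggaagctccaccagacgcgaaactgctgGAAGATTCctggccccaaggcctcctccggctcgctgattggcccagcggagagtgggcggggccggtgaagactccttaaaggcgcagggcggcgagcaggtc
Hspa1b: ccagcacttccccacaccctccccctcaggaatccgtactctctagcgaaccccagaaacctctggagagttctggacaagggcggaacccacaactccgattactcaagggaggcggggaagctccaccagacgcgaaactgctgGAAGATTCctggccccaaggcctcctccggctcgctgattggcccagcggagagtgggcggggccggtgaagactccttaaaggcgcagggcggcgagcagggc
Hspd1 and Hspe1: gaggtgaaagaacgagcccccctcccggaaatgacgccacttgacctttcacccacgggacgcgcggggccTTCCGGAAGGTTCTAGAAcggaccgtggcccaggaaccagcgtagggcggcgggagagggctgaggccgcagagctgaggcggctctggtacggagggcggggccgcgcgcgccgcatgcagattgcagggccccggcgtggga
Hspa5: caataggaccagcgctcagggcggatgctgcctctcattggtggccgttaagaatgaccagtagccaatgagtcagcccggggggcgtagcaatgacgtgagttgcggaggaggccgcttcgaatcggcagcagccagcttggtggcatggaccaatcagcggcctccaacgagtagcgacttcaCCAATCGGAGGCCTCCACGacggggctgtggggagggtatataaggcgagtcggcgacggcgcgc

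The Hspa1a and Hspa1b stretches differed at 3 of 250 bases, and both held 1 heat shock element, 104 bases before the start. The stretch shared by Hspd1 and Hspe1 held 3 overlapping elements in a single run. Another Hspd1 start site, with its 250 bases at chr1:55088244-55088493 (minus strand), held 0. Hsph1 had 1 element, Hspb1 had 2 (117 and 97 bases before its start) and Dnajb1 had none in this window. Both strands were searched, and 12.8% of the 32851 promoters of the same length in the table held a heat shock element, so a match by itself is common. A run of 3 units, in which a further GAA or TTC follows the pair after any 2 bases, was found in 0.466% of promoters, among them those of Hspd1 and Hspe1. The element in the Hspa5 promoter, 65 bases before its start, was found in 37 promoters (0.113%).

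Within the limits of the study (800 to 44999 UMIs, 250 to 6499 genes and under 5% mitochondrial UMIs, where a UMI is a counted molecule), 119053 cells were kept, at a median of 2207 to 4762.5 UMIs a cell and library totals of 90352359 to 141182123 UMIs. Cells were named from 18 lists of marker genes: 101227 received a name, 14146 with markers of several types were left out, and 88602 of those named were microglia-like. Cells of the kind that the study removed as artifactually activated by dissociation were kept, so all values below include them. Another 10 classes had enough cells for a test, from 350 mural cell-like to 2979 monocyte-like cells. Endothelial-, mural cell-, choroid plexus cell- and ependymal cell-like cells are not immune cells and were present despite the enrichment. The study placed endothelial cells, choroid plexus cells and pericytes in its CD45-negative population. All 8 microglial markers were detected in the microglia-like cells, but their summed level was 30278 to 31511 CPM (counts-per-million of UMIs) in saline libraries and 4666 to 5572 in LPS libraries, and 90.3 to 94.2% of cells were named in saline libraries against 76.7 to 79.7% in LPS libraries. Of the distinct cell barcodes, 0.1051% occurred in more than 1 library. Each test used UMIs summed over the cells of 1 class in 1 library, scaled by TMM (a normalisation that takes most genes as unchanged) and fitted in edgeR, with p-values adjusted over all genes tested and a call at an adjusted p under 0.05.

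In microglia-like cells, the choice of DMSO or inhibitors separated the genes sharply: Hspa1a and Hspa1b, the inducible HSP70 genes, were about 5 log2 units higher with DMSO, while none of the other 8 members passed the test. That was 2 members of 10, against 0.348% of the 21283 genes tested. The members were chosen with earlier results of these data known, and the study counts heat shock protein genes in its dissociation signature. The counts with DMSO, here and in the other classes, are therefore descriptions and not independent results. The TMM-scaled level of Hspa1a was 211 and 58.2 CPM in saline DMSO libraries 1 and 2, 6.10 and 2.64 in saline inhibitors, 30.0 and 22.1 in LPS DMSO, and 0.688 and 0.523 in LPS inhibitors. All 4 DMSO libraries lay above all 4 inhibitor libraries, with saline DMSO 1 the highest. DMSO libraries averaged 80.4 ± 88.7 CPM (SD, n = 4) and inhibitor libraries 2.49 ± 2.59, and the log2 fold change was 5.10 (SE 0.41, adjusted p = 5.76e-05).

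Hspa1b encodes almost the same protein as Hspa1a, so counting can divide molecules between both genes, and the split between them is uncertain. Its level was 264 and 82.7 CPM in saline DMSO, 7.49 and 3.22 in saline inhibitors, 18.3 and 14.7 in LPS DMSO, and 0.777 and 0.483 in LPS inhibitors, again with no overlap between DMSO and inhibitors. The log2 fold change of Hspa1b was 4.89 (SE 0.39, adjusted p = 5.12e-05). Without saline DMSO replicate 1 the changes were 4.60 for Hspa1a and 4.33 for Hspa1b, and both remained called. The same ordering was seen in free RNA: barcodes with at most 99 UMIs carried Hspa1a at 338 and 63.0 CPM in saline DMSO but at 1.69 and 1.51 in LPS inhibitors, and in CPM of the library totals free RNA lay above the microglia-like cells in 7 of 8 libraries for both genes (338 against 302 for Hspa1a in saline DMSO 1). The same count was 7 for Hspa8, Hsp90aa1 and Hsph1, 8 for Hspb1, 4 for Dnajb1 and Hspe1 and 0 for Hspd1 and Hspa5. The part of free RNA in the cell values was not tested. Erythroid markers summed to 367 and 1282 CPM in the microglia-like cells of saline DMSO libraries and to at most 57.3 in all the others, and their part was not tested either.

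**Figure D1:**
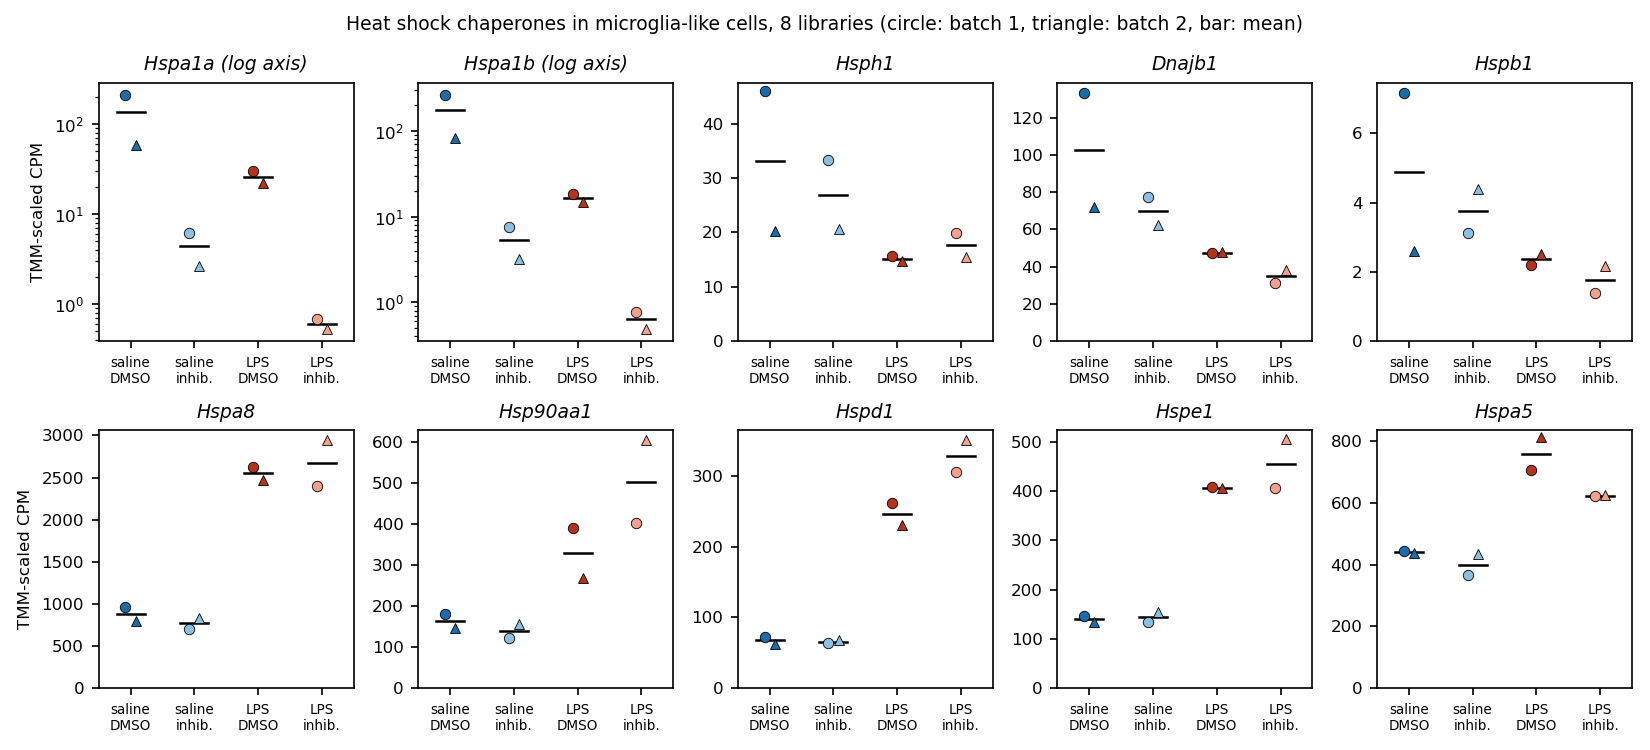
TMM-scaled CPM (vertical axis, logarithmic for Hspa1a and Hspa1b and starting at 0 for the others) of the 10 genes in microglia-like cells of each library, by group; circles are batch 1, triangles batch 2 and bars the mean of both. Hspa1a and Hspa1b were higher in every DMSO library than in any inhibitor library, whereas Hspa8, Hsp90aa1, Hspd1, Hspe1 and Hspa5 were higher in every LPS library than in any saline library with this scaling, whereas by library totals Hsp90aa1 and Hspa5 overlapped.

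Dnajb1, the J-domain partner of the inducible HSP70, was 134 and 71.9 CPM in saline DMSO and 77.4 and 62.2 in saline inhibitors, and 47.3 and 47.9 against 31.3 and 38.4 after LPS. The groups overlapped, and its log2 fold change with DMSO was 0.50 (SE 0.17, adjusted p = 0.960). The remaining 7 members ranged from -0.20 for Hsp90aa1 to 0.40 for Hspb1. No related chaperone was called either: none of 32 further cytosolic chaperones and co-chaperones, 8 subunits of the cytosolic chaperonin CCT, 10 mitochondrial chaperones and proteases, or 19 endoplasmic reticulum chaperones and unfolded protein response genes was called with DMSO in edgeR, and 0 of them had an unadjusted p under 0.05. All 12 immediate-early genes on a list drawn up for this purpose, which cells switch on within minutes of a stimulus, were higher with DMSO, from 1.49 for Ier3 to 5.66 for Fosb. Their median was 3.29, beside -0.02 over all genes tested. The list was chosen with earlier results of these data known. The study describes its dissociation signature as largely immediate-early and heat shock protein genes, with some cytokines and chemokines. The count of 12 is therefore a description and not an independent result.

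At least 1 UMI of the inducible pair was counted in more cells with DMSO. When each microglia-like cell was thinned to 800 UMIs to equalise depth, cells with at least 1 Hspa1a UMI made up 15.0% and 4.22% in saline DMSO, 0.676% and 0.218% in saline inhibitors, 1.84% and 1.39% in LPS DMSO, and 0.0608% and 0.0302% in LPS inhibitors. DMSO and inhibitor libraries did not overlap (mean 5.62 ± 6.40% against 0.246 ± 0.298%, SD, n = 4 each; two-sided exact permutation test p = 0.0286, the smallest p that 4 against 4 libraries allow). Unthinned, the means were 12.7% and 0.849%. Hspa1b gave 6.73% and 0.309% (exact permutation p = 0.0286). Without saline DMSO replicate 1 the DMSO means were 2.48% for Hspa1a and 2.78% for Hspa1b, still without overlap (exact permutation p = 0.0571 for both, the smallest p that 3 against 4 libraries allow). Hspa5 gave 35.4% and 31.3% (exact permutation p = 0.0286), although the unthinned Hspa5 shares overlapped (exact permutation p = 0.657). The other 7 genes overlapped between DMSO and inhibitors at equal depth. These exact p-values are not adjusted, and after adjustment over the 10 genes 0 of them were under 0.05. No class here is known to lack these genes, so no share from such a class could be set beside them, and with free RNA at the levels given above a share counts cells with a UMI, not cells that express the gene. In saline DMSO 1, Hspa1b was found in 45.5% of thinned cells with Hspa1a and in 13.8% of cells without it, and the tenth of cells richest in Hspa1a held 70.7% of its 11329 UMIs. The shares were 28.4% and 5.13% in saline DMSO 2, 8.66% and 1.06% in LPS DMSO 1, and 8.37% and 0.921% in LPS DMSO 2. In saline inhibitors they were 4.66% and 0.798%, then 3.13% and 0.313%. In LPS inhibitors, where only 6.16 and 3.54 cells with Hspa1a were expected, Hspa1b was not found in them.

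**Figure D2:**
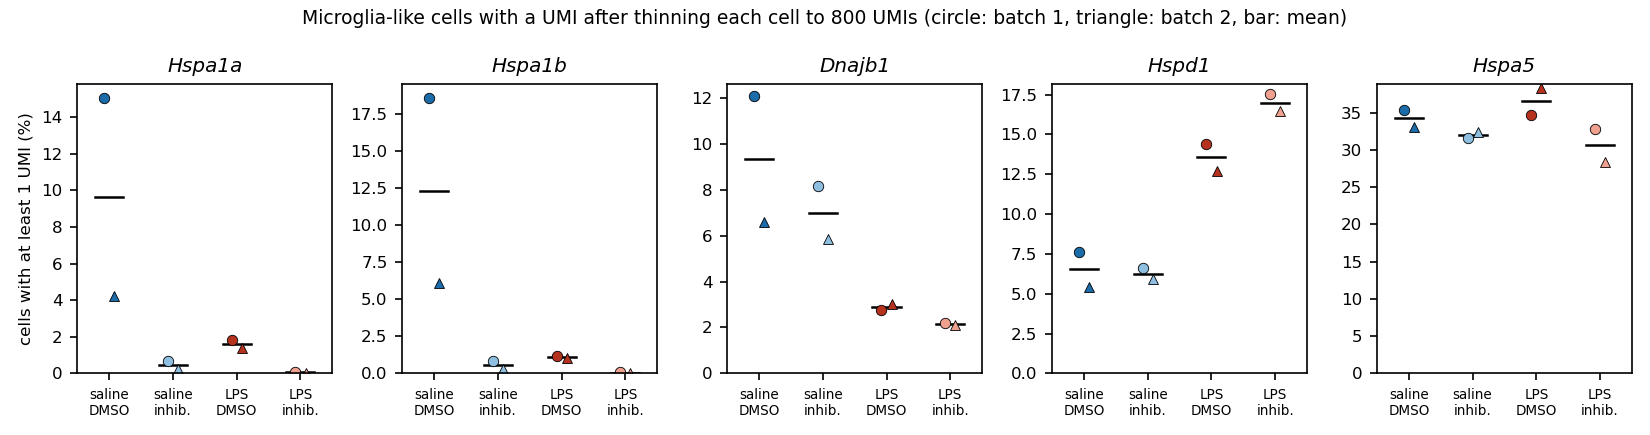
Share of microglia-like cells with at least 1 UMI of the gene after thinning each cell to 800 UMIs (vertical axis, in percent, from 0), by group; circles are batch 1, triangles batch 2 and bars the mean of both. For Hspa1a and Hspa1b all DMSO libraries lie above all inhibitor libraries, with saline DMSO 1 at 15.0% and 18.6%, whereas Hspd1 separates LPS from saline libraries.

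Over the 8 libraries, the genes whose log2 CPM in microglia-like cells was most like that of Hspa1a were Hspa1b (Pearson r = 0.989), Fosb (0.985), Jund (0.980), Tnfsf13os (0.976) and Epp13 (0.973), and 53 of 21282 genes exceeded 0.9. These are descriptions over n = 8 libraries that share the same 4 groups.

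All 10 members were called after LPS in microglia-like cells, 5 higher and 5 lower, where 62.2% of all genes tested were called. As given above, the markers that name these cells were lower after LPS, and a smaller share of cells was named. A different selection of cells cannot be told apart from a change of these genes within the same cells. Hspa8, Hsp90aa1, the mitochondrial chaperonin pair and, except by library totals, Hspa5 were higher after LPS, and the inducible HSP70 pair, Dnajb1, Hsph1 and Hspb1 were lower. These directions are relative to TMM scaling: when libraries were scaled by their totals alone, an alternative added after the data were seen, the median of all genes moved by -0.79 on the log2 scale (from -0.20 to -0.99). The genes called then split into 2769 higher and 14552 lower, in place of 6152 higher and 7087 lower.

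Hspd1 encodes HSP60, the barrel of the mitochondrial chaperonin. Its level was 72.8 and 63.1 CPM in saline DMSO, 64.0 and 67.5 in saline inhibitors, 261 and 231 in LPS DMSO, and 305 and 350 in LPS inhibitors. The groups did not overlap, and Hspd1 rose from 66.9 ± 4.39 (SD, n = 4) to 287 ± 51.9 CPM, or by 2.09 on the log2 scale (SE 0.13) with TMM, at adjusted p = 7.94e-08, and by 1.29 with library totals. Hspe1 encodes HSP10, the lid of the same chaperonin, and was 147, 135, 134 and 155 CPM in the saline libraries, in the order above, and 408, 407, 407 and 505 in the LPS libraries. It rose by 1.60 (SE 0.13, adjusted p = 3.78e-07; 0.81 by library totals). Hspd1 and Hspe1 moved in the same direction, with no overlap between saline and LPS.

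Hspa8, the constitutive HSP70, was 969 and 799 CPM in saline DMSO, 709 and 833 in saline inhibitors, 2625 and 2470 in LPS DMSO, and 2401 and 2949 in LPS inhibitors. It rose by 1.66 (SE 0.17, adjusted p = 3.12e-06; 0.87 by library totals), with no overlap. Hsp90aa1, the inducible cytosolic HSP90, was 180, 146, 123 and 157 CPM in the saline libraries and 389, 268, 402 and 604 in the LPS libraries. It rose by 1.43 (SE 0.21, adjusted p = 9.32e-05; 0.63 by library totals), and LPS DMSO 2 was the LPS library closest to saline. In CPM of the library totals the groups overlapped, with Hsp90aa1 at 257 in saline DMSO 1 and 206 in LPS DMSO 2. Hspa5 was 445, 436, 366 and 433 CPM after saline and 706, 812, 622 and 623 after LPS. The groups did not overlap and its TMM-scaled change was 0.71 (SE 0.13, adjusted p = 0.000418), but by library totals it was -0.07 (adjusted p = 0.564), so that both the direction and the call of Hspa5 depended on the scaling.

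The other 5 members were lower after LPS under both scalings. Dnajb1 fell by 1.06 (SE 0.17, adjusted p = 0.000167), with the values given above not overlapping between saline and LPS. Hsph1, an HSP110 that exchanges nucleotide for HSP70, was 46.0, 20.2, 33.3 and 20.6 CPM after saline and 15.6, 14.7, 19.9 and 15.4 after LPS. It fell by 0.87 (SE 0.24, adjusted p = 0.00646), and by 0.50 without saline DMSO replicate 1, its highest library. Hspb1, a small heat shock protein, was scarce, at 2.60 to 7.16 CPM after saline and 1.38 to 2.52 after LPS, and fell by 1.07 (SE 0.28, adjusted p = 0.00596), or by 0.69 (adjusted p = 0.0351) without saline DMSO replicate 1. Free RNA carried Hspb1 at 14.6 to 84.4 CPM, above its level in microglia-like cells, and its part in that result was not tested.

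Hspa1a fell by 2.55 (SE 0.38, adjusted p = 9.28e-05) and Hspa1b fell by 3.30 (SE 0.37, adjusted p = 7.88e-06) after LPS in a fit that took DMSO or inhibitors into account. Their saline and LPS libraries overlapped, since the LPS DMSO libraries lay above the saline inhibitor libraries, but within each of DMSO and inhibitors both saline libraries lay above both LPS libraries. Without saline DMSO replicate 1 the falls were 1.94 and 2.65. With 2 against 2 libraries in a fit of all 4 groups, Hspa1a changed by -2.88 (adjusted p = 0.00287) among inhibitor libraries and by -2.36 (adjusted p = 0.00229) among DMSO libraries, and Hspa1b by -3.12 and -3.38. Without saline DMSO replicate 1 the change of Hspa1a among DMSO libraries was -1.12. The values of LPS inhibitors 1 and 2 rested on few molecules, 31 and 26 UMIs of Hspa1a and 35 and 24 of Hspa1b. Free RNA of both genes was lower after LPS too: within each of DMSO and inhibitors, both saline libraries lay above both LPS libraries. The part of free RNA in these falls was not tested.

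Within inhibitor libraries alone 8 of the 10 members were called after LPS, against 44.4% of all genes tested, and within DMSO libraries 9 of 10, against 42.5%. Hspb1 missed the threshold in both (-1.06 in each, adjusted p = 0.0587 and 0.0589), and Hsph1 missed it among inhibitor libraries (-0.61, adjusted p = 0.147). By library totals the calls as higher fell from 5 to 4 within inhibitor libraries, where Hspa5 was at -0.14 (adjusted p = 0.458), and from 5 to 3 within DMSO libraries, where Hspa5 was at 0.0021 (adjusted p = 0.991) and Hsp90aa1 at 0.22 (adjusted p = 0.377). Leaving out single libraries ended the call of Hspa5 within inhibitor libraries in 6 cases, with adjusted p up to 0.293 without saline inhibitors replicate 1, and that of Dnajb1 in 1 (0.0654 without LPS inhibitors replicate 1), and within DMSO libraries it ended that of Hsph1 in 3 cases (adjusted p = 0.291 without saline DMSO replicate 1), Hspa5 in 2 (0.0736 without the same library), Dnajb1 in 1 (0.0655, the same library) and Hsp90aa1 in 1 (0.0963 without LPS DMSO replicate 1). The LPS change of Hspd1 was 2.32 with inhibitors and 1.86 with DMSO, and that of Hsp90aa1 was 1.85 and 1.02 (1.04 and 0.22 by library totals). The difference between DMSO and inhibitors in the LPS change itself was called for 0 of the 10 members in edgeR, where 0.0269% of all genes were called. At an unadjusted p under 0.05 it was found for 1 member, Hsp90aa1 (-0.83, SE 0.37, adjusted p = 1.00), and DESeq2 called 0.

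Related chaperones were examined on lists drawn up by compartment, and most of their counts moved with the scaling. Over all genes 62.2% were called with TMM and 81.4% by library totals, so a list of mixed direction with 20 of 32 or 9 of 19 called is at or below the share of all genes. With TMM all 8 CCT subunits were higher after LPS in microglia-like cells, from 0.57 for Cct4 to 2.20 for Cct3 (median 1.95, beside -0.20 over all genes), and by library totals 7 of 8 were higher (median 1.17), with Cct4 at -0.22 (adjusted p = 0.0629). Of 10 other mitochondrial chaperones and proteases 9 were higher and 0 lower with TMM, against 4 higher and 2 lower by library totals. Hspa9, the mitochondrial HSP70, was higher under both (1.51 and 0.73), whereas Dnaja3, a mitochondrial J-domain protein, turned from 0.35 to -0.43. The cytosolic list had 16 higher and 4 lower of 32 with TMM, but 7 higher and 17 lower by library totals. Fkbp5, a glucocorticoid-induced HSP90 co-chaperone, was higher (2.20 and 1.38) and Hspa12a lower (-1.13 and -1.92) under both. The endoplasmic reticulum list had 7 higher and 2 lower of 19 with TMM, but 3 higher and 12 lower by library totals. Atf4, a transcription factor of the stress response, was higher (1.18 and 0.40) and the BiP co-chaperone Dnajb9 lower (-0.61 and -1.39) under both.

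The genes most like Hspd1 over the 8 libraries were Mia3 (r = 0.999), Bpnt1 (0.998), Ccnh (0.998), Rbms1 (0.998) and Ist1 (0.998), and 4379 genes exceeded 0.9. For Hspa5 they were Gm48746 (0.987), Ftl1-ps1 (0.983), F630206G17Rik (0.983), Il31ra (0.982) and Grik3 (0.981), with 1907 genes over 0.9. As the LPS and saline libraries stood apart for most genes, many genes share these patterns.

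In the 10 other classes, the change with DMSO was again found in Hspa1a and Hspa1b, and in no other member: 4 of 77 gene and class pairs tested were called. In macrophage-like cells, which hold the border macrophages of the brain, 2 of 9 members tested were called, against 0.76% of genes. Macrophage-like Hspa1a was 663 and 253 CPM in saline DMSO, 15.6 and 7.69 in saline inhibitors, 133 and 75.8 in LPS DMSO, and 7.56 and 3.90 in LPS inhibitors. All DMSO libraries lay above all inhibitor libraries, and the change was 4.99 (SE 0.39, adjusted p = 9.61e-08). Hspa1b changed by 5.02 (SE 0.47, adjusted p = 1.12e-06) in the same cells. By library totals macrophage-like Hspa1b ran from 0 to 522 CPM (median 22.6), with 166 to 316 cells a library. Its lowest values lay at the floor, so the size of its changes is uncertain. Macrophage-like Hspa8 (0.57, adjusted p = 0.463) and Dnajb1 (0.72, adjusted p = 0.336) missed the threshold.

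Monocyte-like cells gave smaller values, and 2 of 9 members were called against 0.0708% of genes. Saline DMSO 1 held only 26 of these cells. Hspa1a was 68.8 and 143 CPM in saline DMSO, 57.9 and 11.9 in saline inhibitors, 25.0 and 23.7 in LPS DMSO, and 5.89 and 6.05 in LPS inhibitors, so that DMSO and inhibitor libraries overlapped. The changes were 1.85 for Hspa1a (SE 0.32, adjusted p = 0.0195) and 2.16 for Hspa1b (SE 0.41, adjusted p = 0.0490). Leaving out single libraries ended the call of Hspa1a in 4 of 8 cases and that of Hspa1b in 6 of 8, with adjusted p of 0.288 and 0.486 without LPS inhibitors replicate 2. The call of Hspa1b also ended with DESeq2 (adjusted p = 1.00), with at least 3 markers to name a cell (adjusted p = 0.050), with mixed cells kept (adjusted p = 0.161) and, as that of Hspa1a did, at 1500 UMIs or more (adjusted p = 0.162 for both).

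In the remaining 8 classes 0 members were called with DMSO in edgeR, against 0.112% of gene and class pairs, with 6 of 59 pairs at an unadjusted p under 0.05. DESeq2 called 0, but edgeR without an expression filter called 8 of 80 pairs, with 20 at an unadjusted p under 0.05. The 0.112% is that of the main fit. The shares over all genes without a filter, and with the replicate block below, are not given here. Endothelial-like Hspa1a was 312 and 40.7 CPM in saline DMSO, 62.4 and 35.6 in saline inhibitors, 123 and 56.1 in LPS DMSO, and 21.7 and 14.0 in LPS inhibitors, a change of 2.02 (SE 0.46, adjusted p = 0.473). Without saline DMSO replicate 1 the endothelial-like changes were 1.07 for Hspa1a and 1.10 for Hspa1b. The part of free RNA in the endothelial-like values was not tested. With the batch as a replicate block, which the labels allow since the number is the batch, endothelial-like Hspa1a (1.82, adjusted p = 0.0119), endothelial-like Hspa1b (1.88, adjusted p = 0.00169) and ependymal-like Hspb1 (-0.82, adjusted p = 0.0471) were called as well, 7 pairs in all in place of 4. With the main expression filter Hspa1a could not be tested in neutrophil-, B-cell-, T-cell-, NK cell-, mural cell-, choroid plexus cell- and ependymal cell-like cells, where too few UMIs were counted. Hspa1b could not be tested in the same classes except ependymal cell-like cells. Among these 8 classes the inducible genes were therefore tested only in endothelial-like cells and, for Hspa1b, in ependymal cell-like cells.

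**Figure D3:**
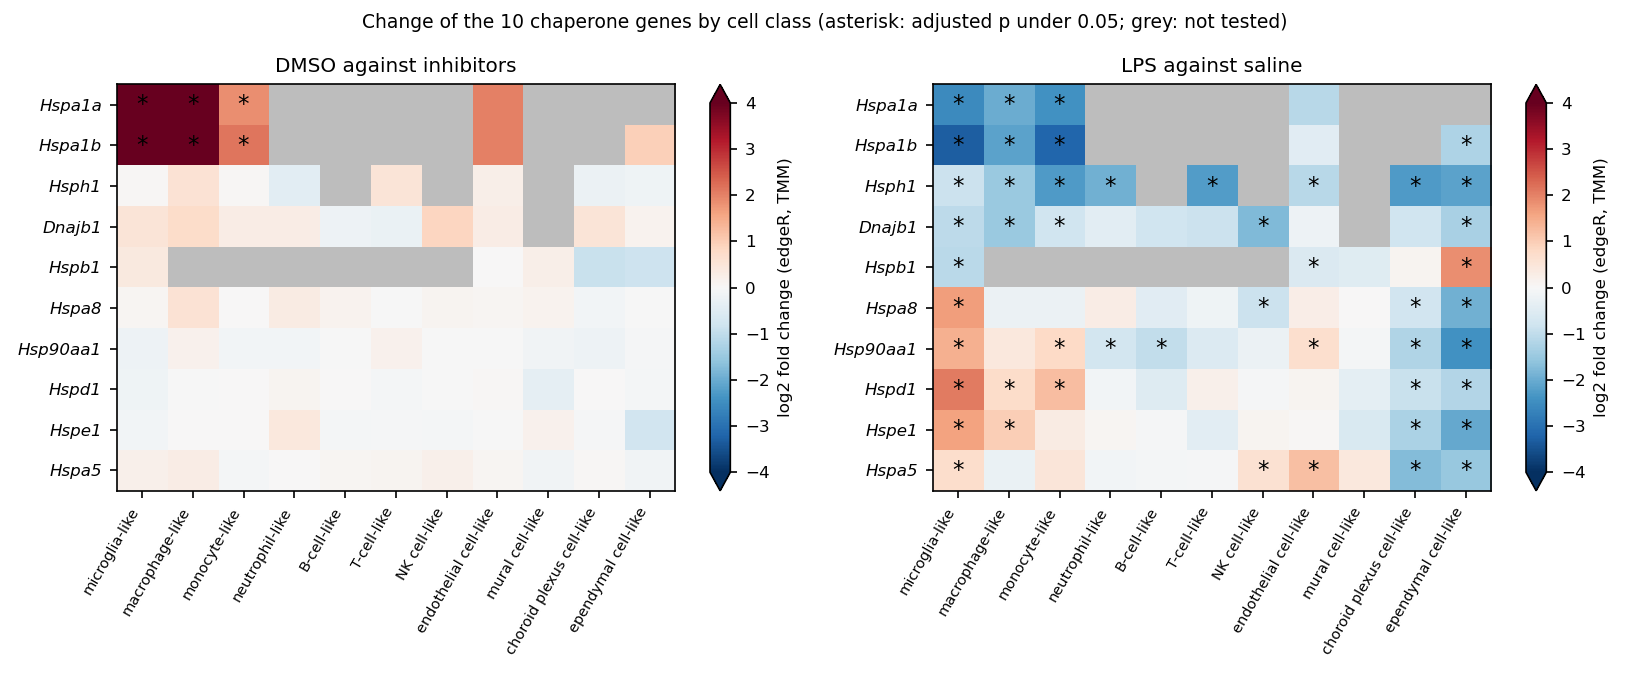
Log2 fold changes (colour, edgeR with TMM scaling) of the 10 genes (rows) in 11 cell classes (columns) for DMSO against inhibitors, left, and LPS against saline, right; an asterisk marks an adjusted p under 0.05 and grey a gene not tested in that class. On the left, asterisks stand only on Hspa1a and Hspa1b, in microglia-, macrophage- and monocyte-like cells; on the right, Hspa8, Hspd1 and Hspe1 are red in microglia-like and blue in ependymal cell-like cells.

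The difference from microglia-like cells was tested directly, with both classes of a library in 1 fit, and is given for the 77 gene and class pairs in which the gene was also tested in the class alone. This fit scales both classes together, so its differences are not those between the changes printed for each class: over the 56 called after LPS, with a like sign in all 56, they were higher by a median of 0.33 (range -0.35 to 0.62). The change with DMSO differed for 7 of them, against 0.535% of such pairs over all genes. Among these, Hspa1a had a smaller change in monocyte- and endothelial-like cells, and Hspa1b in monocyte-, endothelial- and ependymal cell-like cells. For macrophage-like cells the difference in that fit was 0.07 for Hspa1a and 0.10 for Hspa1b, neither of which was called. The part of free RNA in these differences was not tested.

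After LPS, 38 of 77 gene and class pairs outside microglia were called, 8 higher and 30 lower. Over all genes, 13.5 to 46.4% of those tested were called in each of these classes, and 48.0 to 53.6% of the called ones were higher. Macrophage-like cells gave 6 of 9 (46.4% of genes were called in that class): Hspd1 (0.73) and Hspe1 (0.97) were higher, and Hspa1a (-2.0), Hspa1b (-2.15), Dnajb1 (-1.49) and Hsph1 (-1.49) were lower. Without saline DMSO replicate 1 Hspa1a was at -1.18 and Hspa1b at -1.34, and without LPS DMSO replicate 1 Hspa1b was at -3.24, all still called. By library totals Hspd1 was 0.32 (adjusted p = 0.204) there, and Hspa5 (-0.68) and Hspa8 (-0.64) were called as lower. Monocyte-like cells also gave 6 of 9 (30.3% of genes): Hspd1 (1.23) and Hsp90aa1 (0.78) were higher, and Hspa1a (-2.42), Hspa1b (-3.19), Hsph1 (-2.27) and Dnajb1 (-0.81) were lower. The Dnajb1 call there was lost without saline DMSO replicate 2 (adjusted p = 0.142) or saline inhibitors replicate 1 (adjusted p = 0.0856), and without an expression filter the change was -0.48 (adjusted p = 0.367). Saline libraries held 26 to 130 monocyte-like cells and LPS libraries 531 to 776. A different mix of monocytes cannot be told apart from a change of these genes within the same cells.

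In neutrophil- and lymphocyte-like cells 1 to 3 members were called in each class. In neutrophil-like cells 2 of 7 were called (18.9% of genes), Hsph1 (-1.93) and Hsp90aa1 (-0.73), and both calls were lost without several single libraries, among them saline DMSO replicate 1 (adjusted p = 0.136 and 0.134), and without an expression filter (-1.57, adjusted p = 0.0736, and -0.37, adjusted p = 0.764). Neutrophil-like Hsp90aa1 was also lost with mixed cells kept (-0.41, adjusted p = 0.304), with DESeq2 (adjusted p = 0.0522) and at 1500 UMIs or more (adjusted p = 0.101). In B-cell-like cells 1 of 6 was called (13.5% of genes), Hsp90aa1 (-0.97), which was lost without either LPS DMSO library and with mixed cells kept (adjusted p = 0.0685). In T-cell-like cells it was 1 of 7 (18.5% of genes), Hsph1 (-2.23), lost without LPS DMSO replicate 1, LPS inhibitors replicate 2 or saline inhibitors replicate 1. In NK cell-like cells 3 of 6 were called (21.8% of genes): Dnajb1 (-1.78), lost without saline inhibitors replicate 2, Hspa8 (-0.87), lost without an expression filter (-0.64, adjusted p = 0.147), and Hspa5 (0.61), lost without any of 5 libraries, without a filter (adjusted p = 0.133) and with DESeq2 (adjusted p = 0.0828). With the replicate block, more members passed the expression filter, and neutrophil-like Hspa1b (-2.43, adjusted p = 0.00308), B-cell-like Hsph1 (-2.35, adjusted p = 0.0159) and NK cell-like Hsph1 (-2.69, adjusted p = 0.0119) were called too.

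Endothelial-like cells, which line the vessels, gave 4 of 10 (42.6% of genes). Hspa5 was 301, 310, 277 and 294 CPM in the saline libraries and 694, 715, 687 and 647 in the LPS libraries, so the groups stood well apart. It rose by 1.21 (SE 0.15, adjusted p = 4.20e-06). In the joint fit with microglia-like cells its change was 0.84 higher there, and 0.43 higher (adjusted p = 0.0716) without LPS inhibitors replicate 1. Hsp90aa1 was at 0.66 (0.45 by library totals, adjusted p = 0.123), and Hsph1 (-1.11) and Hspb1 (-0.57) were lower, with adjusted p of 0.128 and 0.0627 without saline DMSO replicate 1. The Hsp90aa1 call was lost without any of 5 libraries, and its value was 1.00 without saline DMSO replicate 1. Endothelial-like Hspa1a was at -1.10 (adjusted p = 0.0607), and at -0.99 (adjusted p = 0.00919) with the replicate block. Without saline DMSO replicate 1 it was at -0.14, and Hspa1b at 0.54, so most of the Hspa1a value rested on that library. Mural cell-like cells (pericytes and smooth muscle) gave 0 of 6 in edgeR (27.8% of genes), with 1 at an unadjusted p under 0.05. DESeq2 called 0, but without an expression filter edgeR called 2 of 10, Hspa1a (-2.34, adjusted p = 0.000149) and Hspa1b (-1.68, adjusted p = 0.0147). The 27.8% is that of the main fit, and the share of genes without a filter is not given here.

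The epithelia of the ventricles showed falls. Choroid plexus cell-like cells, which make cerebrospinal fluid, gave 6 of 8 (29.7% of genes), all lower. Choroid plexus Hspa5 was 881, 940, 921 and 1107 CPM after saline and 291, 345, 268 and 269 after LPS, and it fell by 1.73 (SE 0.17, adjusted p = 4.98e-09). Hsph1 (-2.26), Hspe1 (-1.27), Hsp90aa1 (-1.20), Hspd1 (-0.89) and Hspa8 (-0.77) were lower as well, and by library totals Hspd1 (-0.45, adjusted p = 0.149) and Hspa8 (-0.36, adjusted p = 0.0503) were not called. The scalings differed in the opposite sense in these cells, where library totals moved the median of all genes by 0.43.

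Ependymal cell-like cells, the ciliated lining of the ventricles, gave 9 of 9 (35.1% of genes), 8 lower and 1 higher. Hsp90aa1 was 5692, 6392, 6514 and 7515 CPM after saline and 1330, 1239, 1024 and 1270 after LPS. It fell by 2.41 (SE 0.17, adjusted p = 3.19e-11), the opposite of its rise in microglia-like cells. Hsph1 (-2.15), Hspe1 (-2.05), Hspa8 (-1.94), Hspa5 (-1.51), Dnajb1 (-1.29), Hspa1b (-1.24) and Hspd1 (-1.17) were lower too, and the call of Hspa1b was lost without any of 6 libraries, with DESeq2 (adjusted p = 0.192) and with mixed cells kept (adjusted p = 0.0525), while without LPS DMSO replicate 1 its value was -3.18. With the replicate block Hspa1a, not tested otherwise, was called as well (-1.48, adjusted p = 0.0185). Hspb1 went the other way, at 81.8, 133, 315 and 217 CPM after saline and 515, 518, 647 and 872 after LPS, a rise of 1.85 (SE 0.19, adjusted p = 2.34e-08). In these cells the 8 ependymal markers summed to 9720 to 11575 CPM after saline and 6345 to 6937 after LPS, and the 7 astrocyte markers to 1157 to 1732 and 3318 to 4362, and a different mix of cells cannot be told apart from a change of these genes within the same cells. The class held 18 to 244 cells a library.

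**Figure D4:**
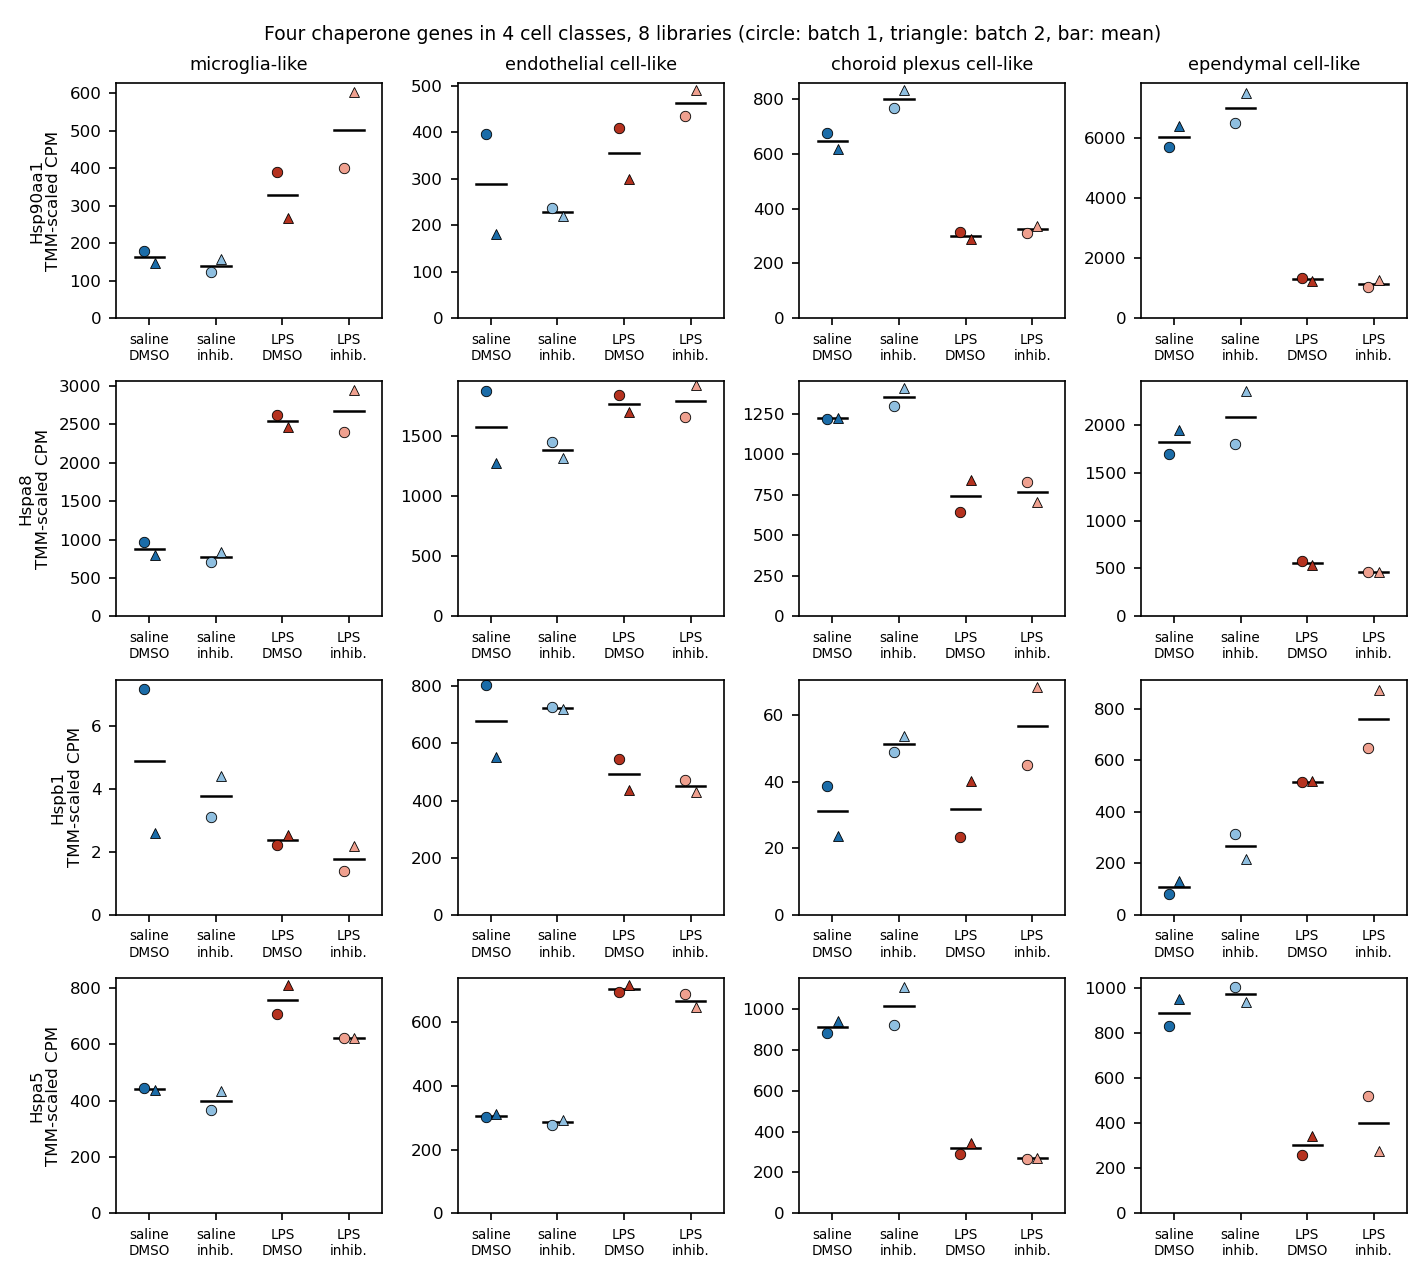
TMM-scaled CPM (vertical axis, from 0, scaled separately in each panel) of Hsp90aa1, Hspa8, Hspb1 and Hspa5 in 4 cell classes by group; circles are batch 1, triangles batch 2 and bars the mean of both. Hsp90aa1 and Hspa8 were higher after LPS in microglia-like cells and lower in choroid plexus cell- and ependymal cell-like cells, and Hspa5 was higher in endothelial-like and lower in choroid plexus cell-like cells.

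The LPS change differed from that in microglia-like cells for 56 of the 77 pairs (11 higher, 45 lower), against 40.3% of such pairs over all genes, and for 49 of them by library totals too. Hspa8 had a lower change than in microglia-like cells in all 10 other classes, and Hsp90aa1, Hspd1 and Hspe1 in 9 of 10 each, whereas by library totals too it was 9 classes for Hspa8, 8 for Hsp90aa1, 9 for Hspd1 and 8 for Hspe1. Hsph1 was lower in 3 classes, and in 1 of them by library totals too. Hspa5 was lower in 5 and higher in 1, the endothelial-like cells, and 2 of the 5, B-cell- and T-cell-like, were not called by library totals. The largest differences were in ependymal cell-like cells, at -3.93 for Hsp90aa1, -3.78 for Hspe1, -3.70 for Hspa8 and -3.38 for Hspd1. Hspb1 had a higher change in 4 of 4 classes, Hspa1b in 3 of 4 and Hspa1a in 2 of 3. In the same joint fit the Hspa1b difference in macrophage-like cells was 1.52, but 0.29 (adjusted p = 0.789) without LPS DMSO replicate 1.

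Levels also differed between the 11 classes tested. In CPM of the summed cells, not TMM-scaled, Hspb1 had a median of 744 over the 8 libraries in mural cell-like cells (332 to 953), 526 in endothelial-like cells (378 to 862) and 345 in ependymal cell-like cells (72.3 to 667), which overlapped with each other, then 39.7 in choroid plexus cell-like cells (17.8 to 70.6). In microglia-like cells it was 2.57 (1.13 to 10.2), and no median of the other 6 classes exceeded 5.10. These medians pool saline and LPS libraries, between which Hspb1 differed in ependymal cell-like cells. Hsp90aa1 had its highest median in ependymal cell-like cells, 3046 (826 to 6507), where all 8 libraries lay above every library of the other 10 classes. Its lowest was 156 in neutrophil-like cells (65.9 to 210).

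For Hspa8, Hspe1 and Hspa5 the leading class depended on the treatment, so means over the 4 libraries of each are given, with ranges that overlapped those next in order. Hspa8 was highest after saline in monocyte-like cells, at 2401 CPM (2084 to 2816), ahead of NK cell-like cells at 2350 (1673 to 3553), and after LPS in microglia-like cells, at 1983 (1900 to 2047), ahead of monocyte-like cells at 1861 (1662 to 2173). Hspe1 was highest after saline in ependymal cell-like cells, at 512 CPM (276 to 666), ahead of B-cell-like cells at 420 (379 to 469), and after LPS in NK cell-like cells, at 373 (350 to 402). Hspa5 was highest after saline in macrophage-like cells, at 826 CPM (685 to 1169), and after LPS in monocyte-like cells, at 658 (534 to 726).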

How the data were processed

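The deposited counts are whole numbers, 1 for each distinct molecule of a gene under a barcode, which the authors made with PIPseeker (STAR alignment to GRCm39) and deposited without a cell filter or normalisation. Later steps of the authors, for which the labels name Seurat 4, were not used, and a filter on complexity was not applied here. The study removed clusters of microglia, macrophages, monocytes and granulocytes that it designated as artifactually activated before it examined LPS. Such cells were kept here, because heat shock genes were part of the score that found them. A cell was named after the list with most of its markers detected, given at least 2 markers and a lead of at least 2 over the next list; 15276 cells lay at that limit. Mixed cells were left out and no doublet caller was run. The 10 members and all lists were chosen with earlier results of these data known. All members are named, with the largest and smallest called change of each related list and the 5 genes most correlated with Hspa1a, Hspd1 and Hspa5.

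UMIs were summed per library and class (at least 10 cells in at least 3 libraries a side) and tested with edgeR 4.0.16 (quasi-likelihood, TMM, filterByExpr, Benjamini-Hochberg adjustment), with the other treatment as covariate. Differences between classes were fitted with both classes together and, a restriction added after the data were seen, counted only for genes that also passed the filter in the class alone. The labels give the replicate number as the batch, so numbers pair libraries, and deviations of same-numbered libraries correlated at 0.0691 to 0.474 over 22297 genes. The main fit left the batch out, and the replicate block put it in. Shares of cells were thinned to their expected value at 800 UMIs and compared by exact permutation tests. The fit was tested on simulated counts. One mouse gave 1 library, so p-values cover differences between mice. Alternatives were DESeq2 1.42.0, other size factors, no filter, a replicate block, no covariate, other cell limits and leaving out each library.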

Additional observations from a re-analysis of the deposited data

Results flagged for a closer look

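The results below were picked out because the change of a gene in another cell class differed from its change in microglia-like cells, by a test of the difference itself (edgeR, both classes in 1 fit with the library as a block, adjusted p under 0.05 over all genes). Each value is the log2 change in the named class minus that in microglia-like cells as the joint fit estimates it, with both classes scaled together, and so is not the difference between the changes given for each class from separate fits. Pairs in which the gene was too scarce to be tested in the class alone are left out. Of the 63 differences below, 46 kept their call and sign in all 11 alternatives run (other size factors, no filter, library totals and leaving out each library), and those that lost it in 4 or more are marked. No explanation was tested.

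For the change with DMSO against inhibitors, Hspa1a differed by -3.10 in monocyte-like cells and -3.25 in endothelial cell-like cells. Hspa1b differed by -2.53 in monocyte-like cells, -3.03 in endothelial cell-like cells and -4.02 in ependymal cell-like cells. Hspa8 differed by 0.46 in macrophage-like cells, a call that was lost in 9 of the 11 alternatives, among them other size factors, no expression filter and library totals. Hspb1 differed by -1.11 in ependymal cell-like cells, lost in 4 alternatives, all of them leaving out a library.

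For the change after LPS, the constitutive HSP70 gene Hspa8 differed by -1.55 in macrophage-like cells, -1.47 in monocyte-like cells, -0.97 in neutrophil-like cells, -2.06 in B-cell-like cells, -1.71 in T-cell-like cells, -2.24 in NK cell-like cells, -1.05 in endothelial cell-like cells, -1.03 in mural cell-like cells, -2.04 in choroid plexus cell-like cells and -3.70 in ependymal cell-like cells. The HSP90 gene Hsp90aa1 differed by -0.68 in macrophage-like cells, -1.77 in neutrophil-like cells, -2.41 in B-cell-like cells, -1.89 in T-cell-like cells, -1.43 in NK cell-like cells, -0.39 in endothelial cell-like cells, -0.94 in mural cell-like cells, -2.24 in choroid plexus cell-like cells and -3.93 in ependymal cell-like cells. In mitochondria, Hspd1 differed by -1.03 in macrophage-like cells, -1.81 in neutrophil-like cells, -2.55 in B-cell-like cells, -1.80 in T-cell-like cells, -1.88 in NK cell-like cells, -1.62 in endothelial cell-like cells, -1.90 in mural cell-like cells, -2.62 in choroid plexus cell-like cells and -3.38 in ependymal cell-like cells. Its partner Hspe1 differed by -0.87 in monocyte-like cells, -1.17 in neutrophil-like cells, -1.64 in B-cell-like cells, -1.91 in T-cell-like cells, -1.25 in NK cell-like cells, -1.20 in endothelial cell-like cells, -1.58 in mural cell-like cells, -2.47 in choroid plexus cell-like cells and -3.78 in ependymal cell-like cells. The endoplasmic Hspa5 differed by -0.66 in macrophage-like cells, -0.73 in B-cell-like cells, -0.64 in T-cell-like cells, 0.84 in endothelial cell-like cells, -2.02 in choroid plexus cell-like cells and -2.31 in ependymal cell-like cells. The Hspa5 call was lost in 7 alternatives in B-cell-like and in 8 in T-cell-like cells, where library totals turned the sign (0.021).

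Among genes that were lower after LPS in microglia-like cells, Hspa1a differed by 0.61 in macrophage-like cells, lost in 9 alternatives, and by 1.85 in endothelial cell-like cells. Hspa1b differed by 1.52 in macrophage-like cells, 3.22 in endothelial cell-like cells and 1.70 in ependymal cell-like cells, where the sign turned without LPS DMSO replicate 1 (-0.18). Hspb1 differed by 0.78 in endothelial cell-like cells, 1.16 in mural cell-like cells, 1.47 in choroid plexus cell-like cells and 2.66 in ependymal cell-like cells, lost in 4 alternatives in mural cell-like and 6 in choroid plexus cell-like cells. Hsph1 differed by -1.07 in monocyte-like cells, -1.13 in choroid plexus cell-like cells (lost in 4) and -1.44 in ependymal cell-like cells. Dnajb1 differed by 1.18 in endothelial cell-like cells.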

How the results depend on the processing

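In microglia-like cells the count of members called with DMSO was 2 in every alternative run but one: without the in vivo treatment as covariate it was 0 (Hspa1a 5.01, adjusted p = 0.773; Hspa1b 4.99, adjusted p = 1.00). Leaving out single libraries gave 2 to 2 members with DMSO, 10 to 10 after LPS, 0 to 0 for the difference of the LPS change, 6 to 9 for LPS within inhibitor libraries and 6 to 10 within DMSO libraries. In the other classes it gave 2 to 5 pairs with DMSO (2 without LPS DMSO replicate 1, LPS inhibitors replicate 1 or LPS inhibitors replicate 2) and 34 to 40 after LPS, and for the differences from microglia-like cells 5 to 7 with DMSO and 49 to 55 after LPS. The 4 pairs with DMSO in other classes became 12 without an expression filter, 7 with the replicate block, 2 at 1500 UMIs or more and 0 without the covariate. The shares over all genes in those classes are not given for these alternatives, and the cause was not tested. The number of all genes called with DMSO in microglia-like cells was 74, and became 145 without a filter, 115 with DESeq2 and 7 without the covariate.

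Of 54 called changes with DMSO or LPS over the 11 classes, 1 turned its sign in an alternative, Hspa5 after LPS in microglia-like cells by library totals (-0.069), and of 120 that were not called 64 did. In microglia-like cells these were 3 genes with DMSO: Hsph1 (-0.27 to 0.19 when single libraries were left out, negative without saline DMSO replicate 1 and, at -0.11, without saline inhibitors replicate 2), Hspa8 (-0.0096 to 0.15, negative without saline inhibitors replicate 1) and Hsp90aa1 (-0.35 to 0.012, positive without LPS inhibitors replicate 2). With the replicate block, which pairs libraries by batch, the counts were 2, 10, 0, 9, 9 and 43 for the same results in order (with DMSO, after LPS, the difference, LPS within inhibitors, LPS within DMSO, and after LPS in other classes), and none of 62 single-gene results lost its call or changed sign. By library totals, with no composition scaling and chosen after seeing the data, 57 of 62 kept direction and call; with DESeq2 58 of 62, and without the covariate 49 of 59, where the calls after LPS of Hspa1a in microglia-like cells (-2.40, adjusted p = 0.126) and of Hspa1a and Hspa1b in macrophage-like cells (adjusted p = 0.0865 and 0.0895) ended too. Libraries permuted within batch cannot give a p under 0.0556 for the shares of cells. Differences between classes were not run with DESeq2 or the block.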
